A study of Mus musculus with 8 samples.

Results

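The testis-specific serine kinases of the mouse (Tssk1 to Tssk6) were followed through the first wave of spermatogenesis. All 6 symbols were found among the 23983 genes of the deposited FPKM table, and all 6 are described here. RNA-seq had been made from total RNA of wild-type C57BL/6J mice, by the labels from whole testis and by the protocol from a piece of it, at day 12 (d12), d16 and d24 after birth and at the adult stage. Each stage has 1 library, the number of animals behind a library is not given in the sources used here, and the exact age of the adult testis is not given either. ChIP-seq for H3K27Ac is not analysed here. Because no stage has a replicate, no test between stages can be made, and all intervals below are exact 95% intervals on the number of sequenced fragments that cover counting error only.

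The first wave of spermatogenesis runs in step after birth, so a juvenile testis holds germ cells only up to a certain stage. Spermatocytes pass through meiosis and form round spermatids, which then elongate, condense their chromatin and build the sperm tail. The Tssk kinases belong to the calcium/calmodulin-dependent kinase group, close to the AMPK-related kinases, and are known for their expression in spermatids. TSSK1 and TSSK2 bind and phosphorylate the testis-specific substrate protein TSKS, and male mice without both are sterile. TSSK3 is activated by the kinase PDPK1, TSSK4 phosphorylates the tail protein ODF2, and TSSK6 is needed for the condensation of sperm chromatin. In tissue RNA, more cells of a type and more RNA per cell cannot be told apart.

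Tssk1 and Tssk2 lie in tandem on the plus strand of chromosome 16 (GRCm38), from 17894203 to 17895653 and from 17898637 to 17900024, with 2983 bp between them. Both consist of 1 exon, as does Tssk6 on the plus strand of chromosome 8 from 69902184 to 69903518. Tssk3 has 2 exons on the minus strand of chromosome 4 from 129489008 to 129490770. Tssk4 has 4 exons on the plus strand of chromosome 14 from 55650184 to 55652539. Tssk5 has 8 exons on the minus strand of chromosome 15 from 76371958 to 76374938. The coding sequences of Tssk1 and Tssk2 encode 365 and 358 residues that are 75.8% identical, and every other pair within the family is 37.1% to 51.1% identical over the aligned residues. The sequences below, read from the GRCm38 genome and written 5′ to 3′, are shown because they mark the members as kinases and show how close they are. Each covers the catalytic loop, and the capitals mark the codons of its histidine, arginine and aspartate.
Tssk1: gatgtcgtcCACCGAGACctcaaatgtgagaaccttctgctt
Tssk2: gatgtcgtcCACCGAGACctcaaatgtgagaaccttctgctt
Tssk3: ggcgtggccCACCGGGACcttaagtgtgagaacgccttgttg
Tssk4: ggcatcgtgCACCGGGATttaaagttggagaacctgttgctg
Tssk5: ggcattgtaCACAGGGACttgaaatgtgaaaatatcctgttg
Tssk6: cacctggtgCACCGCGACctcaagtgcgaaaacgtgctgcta

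These windows lie at chr16:17894743-17894784 (Tssk1, plus strand), chr16:17899125-17899166 (Tssk2, plus strand), chr4:129489452-129489493 (Tssk3, minus strand) and chr8:69902695-69902736 (Tssk6, plus strand). Those of Tssk4 (chr14:55651102-55651516, plus strand) and Tssk5 (chr15:76373536-76373654, minus strand) span an intron. All 6 genes encode the histidine, arginine and aspartate of the loop. Tssk4 was read from the shortest of its 3 curated transcripts, which are 1243 to 1420 bases long. The windows of Tssk1 and Tssk2 are the same, and they lie inside the longest run of bases that the transcripts of these genes share. That run of 113 bases is coding sequence at chr16:17894723-17894835 in Tssk1 and chr16:17899105-17899217 in Tssk2. It is printed because reads of 50 bases from it cannot be told apart.
Tssk1 and Tssk2: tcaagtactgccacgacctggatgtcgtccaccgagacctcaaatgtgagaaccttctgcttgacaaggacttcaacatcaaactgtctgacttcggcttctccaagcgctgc

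Of the stretches of 50 bases in the Tssk1 transcript, 8.92% also occur in Tssk2, and 9.34% of those in Tssk2 occur in Tssk1. A pair with both ends in shared sequence could be counted for either gene. The other 4 members share no stretch of 50 bases with another curated transcript.

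All 6 Tssk genes lay below 2 FPKM in both early libraries and at or above it at d24, the thresholds by which the study's methods select d24 genes. The study's further cutoff on the level was not applied. Of all 23983 genes, 6.30% follow this pattern. None of the 6 met the rule for d16 genes (below 2 FPKM at d12, 2 FPKM or more at d16), which 3.55% of all genes met. Summed over the family, the d12 library had 2.29 FPKM, the d16 library 2.30, the d24 library 303 and the adult library 1407.3. The summed level was thus low in both early libraries and high in both later ones. The sum does not describe each member, since Tssk5 and Tssk6 had only 3.76 and 3.53 FPKM at d24.

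**Figure D1:**
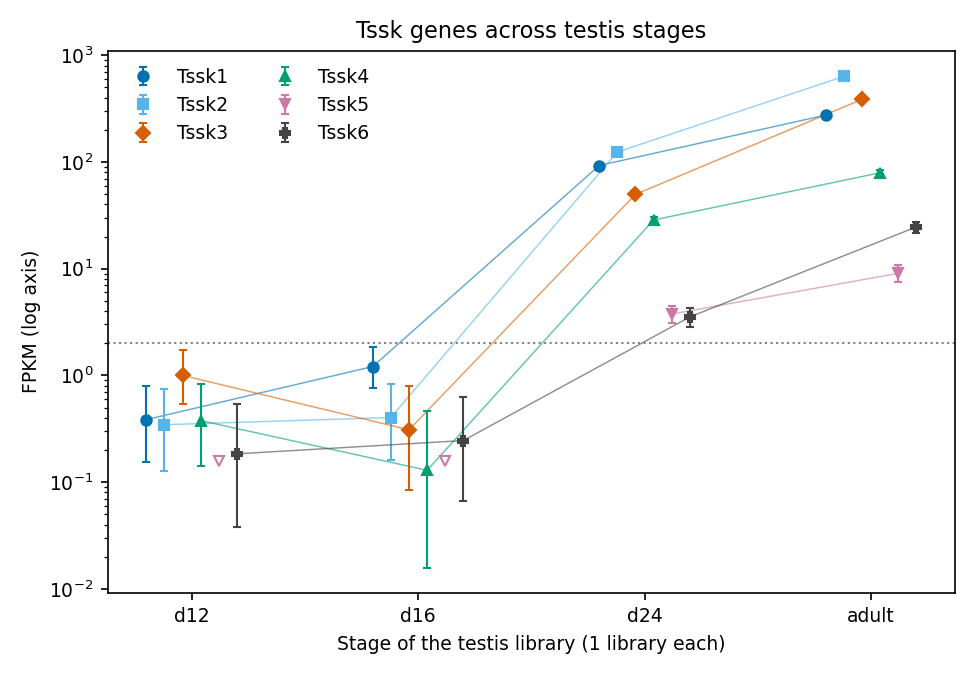
FPKM of the 6 Tssk genes (log axis) in the 4 testis libraries, ordered by age; bars are exact 95% intervals on fragments, open symbols mark Tssk5 at the value of 3 fragments where it had none, and the dotted line is 2 FPKM. All 6 genes lie under the line at d12 and d16 and above it at d24 and in adult testis.

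Tssk2, the highest member in both later libraries, had 0.345 FPKM in the d12 library (6 fragments, 0.127 to 0.752), 0.403 in that of d16 (7 fragments, 0.162 to 0.832), 124 in that of d24 (3792 fragments, 121 to 128) and 634 in the adult one (7840 fragments, 619.9 to 648). Its intervals at d12 and d16 overlap, and those at d24 and in adult testis do not. Tssk2 was 308-fold higher at d24 than at d16 (149 to 767). Its neighbour Tssk1 had 0.385 FPKM in the d12 library (7 fragments, 0.155 to 0.794), 1.21 in that of d16 (22 fragments, 0.761 to 1.84), 92.7 in that of d24 (2951 fragments, 89.3 to 96.1) and 275 in the adult one (3553 fragments, 266 to 284). Tssk1 was the only member whose d16 value exceeded its d12 value beyond counting error, by 3.15-fold (1.30 to 8.73). At d16 it was also 3.01 times as high as Tssk2 (1.24 to 8.33), whereas at d24 Tssk2 was 1.34 times as high as Tssk1 (1.28 to 1.41). The order of the tandem pair thus differed between d16 and d24.

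Tssk3 had 1.00 FPKM in the d12 library (13 fragments, 0.535 to 1.72), 0.309 in that of d16 (4 fragments, 0.0844 to 0.793), 49.7 in that of d24 (1128 fragments, 46.8 to 52.7) and 386 in the adult one (3556 fragments, 373 to 399). It was the highest member at d12, though not beyond counting error against Tssk1, the next in order (ratio 2.61, 0.966 to 7.71). Its d16 value was 0.308 times its d12 value, with an upper bound of 0.998 close to 1. Tssk4 had 0.377 FPKM in the d12 library (6 fragments), 0.129 in that of d16 (2 fragments), 28.6 in that of d24 (781 fragments, 26.7 to 30.7) and 79.2 in the adult one (877 fragments, 74.0 to 84.6). Its fragments are estimates, since they were counted over the shortest of its transcripts. Tssk3 and Tssk4 were the only members lower at d16 than at d12, for Tssk4 within counting error (ratio 0.342, 0.0330 to 1.87).

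Tssk5 and Tssk6 stayed the lowest members at d24 and in adult testis. Tssk5 was listed at 0 FPKM at d12 and d16, for which a limit of 3 fragments, 0.158 and 0.159 FPKM, was used (the exact 95% interval reaches 0.195 FPKM in both), and had 3.76 FPKM in the d24 library (125 fragments, 3.13 to 4.48) and 9.04 in the adult one (122 fragments, 7.51 to 10.8). Its d24 value was 23.7 times the limit of 3 fragments at d16. Against the upper end of the exact interval at d16 the rise would be smaller. Tssk6 had 0.184 FPKM in the d12 library (3 fragments), 0.245 in that of d16 (4 fragments), 3.53 in that of d24 (101 fragments, 2.87 to 4.28) and 24.6 in the adult one (286 fragments, 21.8 to 27.6). Its d24 value was 14.4 times its d16 value (5.44 to 53.8), the smallest rise at this step among the 5 members with a fragment at d16. The fragments of Tssk6 are estimates as well, since they were read with a length of 1305 bases inferred from the values, in place of the 1335 bases annotated here.

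Within each library, FPKM is per transcript length, so the levels of the members can be set side by side. At d24 the order was Tssk2, Tssk1, Tssk3, Tssk4, Tssk5 and Tssk6, and only the last neighbours, Tssk5 and Tssk6, did not differ beyond counting error (ratio 1.07, 0.814 to 1.40). In adult testis the order was Tssk2, Tssk3, Tssk1, Tssk4, Tssk6 and Tssk5, and all neighbours differed beyond counting error, with ratios from 1.40 (1.34 to 1.47, Tssk3 over Tssk1) to 3.47 (3.22 to 3.74, Tssk1 over Tssk4). Tssk3 and Tssk1 therefore changed places between d24 and adult testis, as did Tssk6 and Tssk5. At d12 no neighbours differed beyond counting error, and at d16 only Tssk1 stood apart from the next in order. In adult testis Tssk2 ranked 125 of 23983 genes by FPKM, counted from the highest, Tssk3 ranked 273 and Tssk1 ranked 435, while Tssk5 ranked 7371.

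As shares of the family's summed FPKM, Tssk2 made up 41.1% at d24 and 45.0% in adult testis. Tssk1 made up 30.6% and 19.5%, and Tssk3 16.4% and 27.4%. Tssk4 made up 9.46% and 5.63%, and Tssk5 and Tssk6 stayed under 2% each. At d12 and d16 these shares rest on few fragments, among them 22 of Tssk1 at d16, where this gene made up 52.7%.

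**Figure D2:**
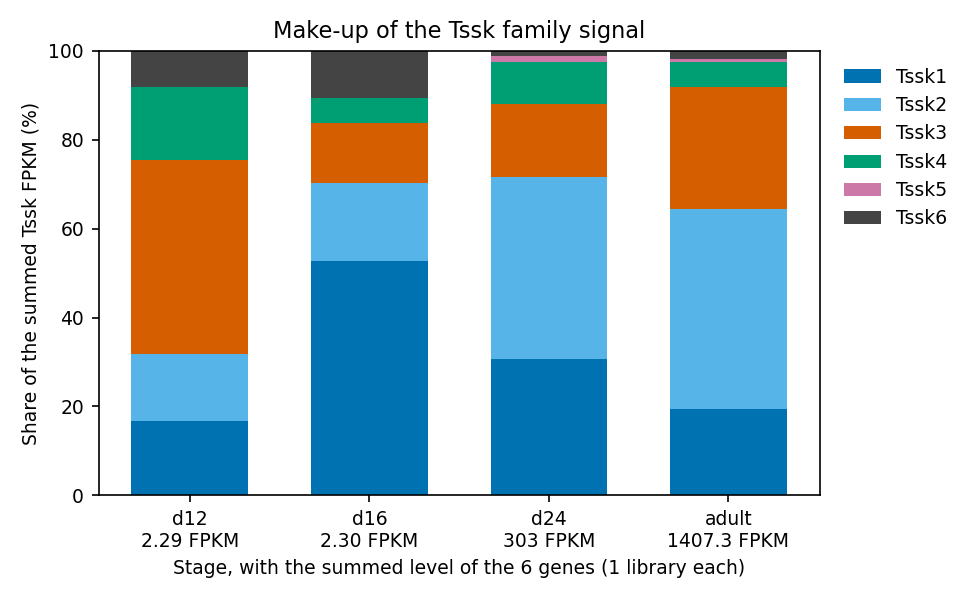
Share of each Tssk gene in the summed FPKM of the 6 genes, in percent, for the 1 library of each stage, with the sum under each bar. Tssk2 holds the largest share at d24 (41.1%) and in adult testis (45.0%), and the bars of d12 and d16 rest on sums of 2.29 and 2.30 FPKM.

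The steps between stages were compared on the scale of log2(FPKM + 0.1) with all 13901 genes that had a mean of at least 1 FPKM over the 4 libraries. A change on this scale understates that of low genes. From d12 to d16 the median change was 0.09 for the 6 Tssk genes (range -1.43 to 1.44) and 0.00 for all genes. From d16 to d24 it was 6.53 for the Tssk genes (range 3.39 to 7.95) and 0.13 for all genes, and 6 of 6 members were at least 4-fold higher at d24 on this scale, as were 15.7% of all genes. From d24 to adult testis it was 1.96 (range 1.24 to 2.95) against -0.02, and 6 of 6 members were at least 2-fold higher in adult testis, as were 11.4% of all genes. Rescaling each library to the same FPKM sum left 4 of 6 past 2-fold at this last step, without Tssk4 (1.98-fold) and Tssk5 (1.72-fold). Among the 1510 genes that first reached 2 FPKM at d24, 54.8% were at least 2-fold higher in adult testis.

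**Figure D3:**
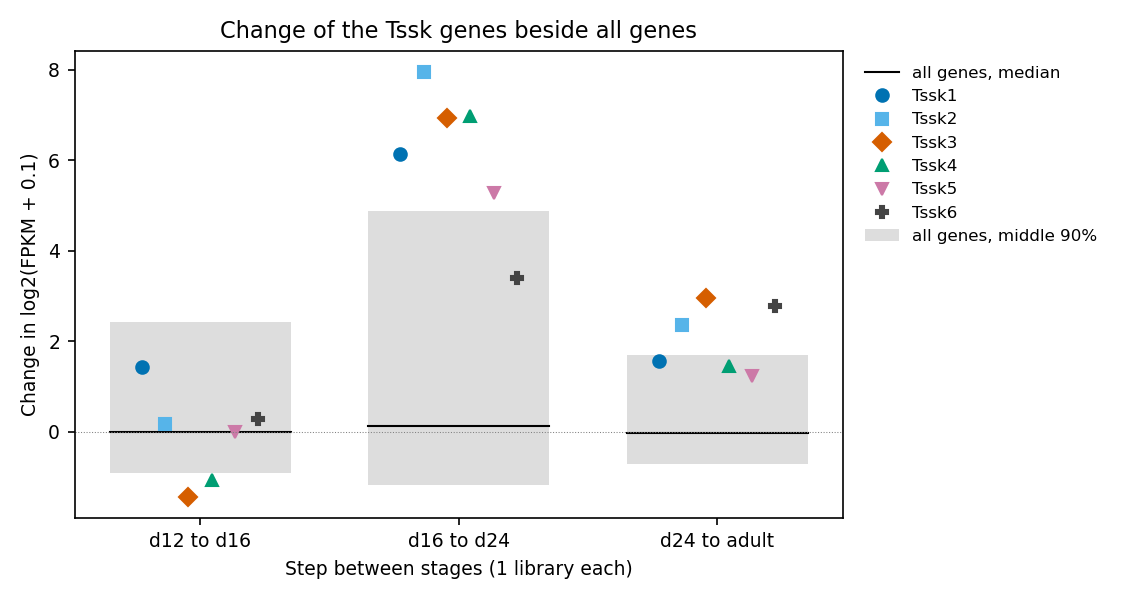
Change in log2(FPKM + 0.1) of each Tssk gene at the 3 steps between stages, beside the median (black line) and the middle 90% (grey) of 13901 genes. From d16 to d24 all members but Tssk6 lie above the grey range, and from d24 to adult Tssk2, Tssk3 and Tssk6 do.

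The members differed in how far they still rose after d24. Tssk3 was 7.76-fold higher in adult testis than at d24 (7.26 to 8.31), Tssk6 6.98-fold (5.54 to 8.84) and Tssk2 5.09-fold (4.90 to 5.30). Tssk1 was 2.97-fold higher (2.82 to 3.12), Tssk4 2.77-fold (2.51 to 3.05) and Tssk5 2.40-fold (1.86 to 3.11). The intervals of the former 3 genes lie clear of those of the latter 3. Tssk1 and Tssk2, which lie side by side, fall on different sides of this gap. A change of scaling between libraries multiplies all 6 ratios by the same factor and so leaves their order as it is.

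These ratios were set beside those of spermatid markers. The 6 markers of round spermatids (Acrv1, Spaca1, Spaca7, Tex36, Catsper3 and Izumo1) were 1.95-fold to 2.94-fold higher in adult testis than at d24, with a median of 2.38. The 6 markers of elongating spermatids were 5.67-fold to 17.5-fold higher, with a median of 8.06, from the tail proteins Odf1 (5.67-fold) and Akap4 (5.72-fold) to the protamine Prm2 (17.5-fold). Tssk4 and Tssk5 lay within the range of the former list and Tssk1 just above it. Tssk3 and Tssk6 lay within the range of the latter list, and Tssk2, at 5.09-fold, between both. Expressed as the share of the adult level already present at d24, Tssk3 had 12.9%, Tssk6 14.3% and Tssk2 19.6%, against 33.7% for Tssk1, 36.2% for Tssk4 and 41.6% for Tssk5. With 1 library per stage, none of these differences could be tested.

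**Figure D4:**
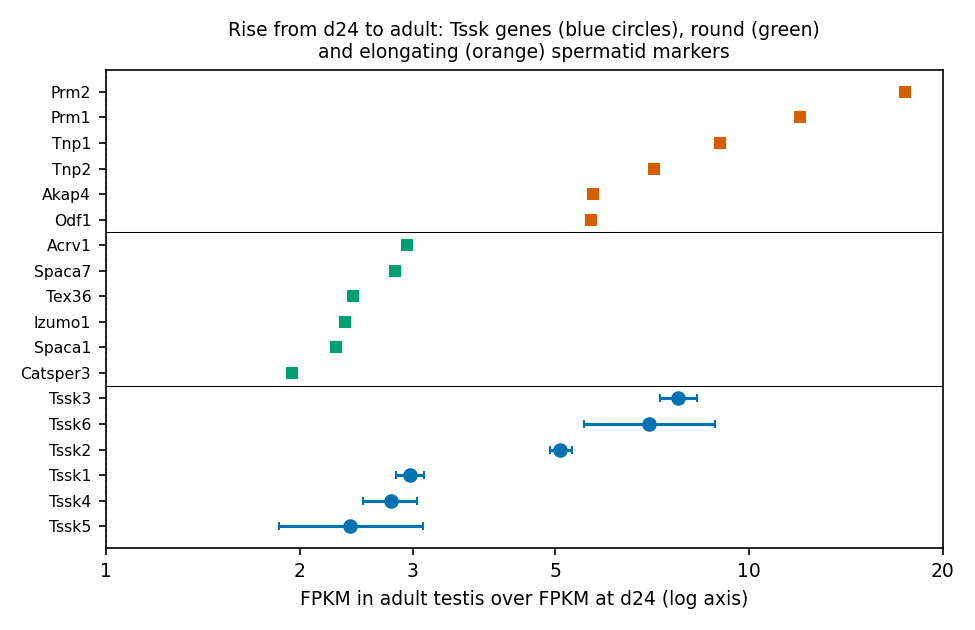
FPKM in adult testis over FPKM at d24 (log axis) for the Tssk genes (blue circles, with exact 95% intervals on fragments) and for 6 round (green squares) and 6 elongating spermatid markers (orange squares), 1 library per stage. Tssk5, Tssk4 and Tssk1 lie between 2.40 and 2.97, and Tssk2, Tssk6 and Tssk3 between 5.09 and 7.76.

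The few early fragments were read with the libraries in view. All 6 elongating spermatid markers were higher at d12 than at d16. As a share of the adult level, their median was 0.0521% at d12 (range 0.0419% to 0.0678%) and 0.0165% at d16. Their summed level was 13.2 FPKM in the d12 library, 4.45 in that of d16, 2363.0 in that of d24 and 26391.9 in the adult one. The d12 value of Tssk2 (0.0545% of its adult level, 6 fragments) lay within that range. Those of Tssk1 (0.140%, 7 fragments), Tssk3 (0.260%, 13), Tssk4 (0.476%, 6) and Tssk6 (0.747%, 3) lay above it. Tssk5 had 0 fragments at d12. Counting error was not carried into these shares, so a value above the range need not differ from it beyond counting error. Of the round spermatid markers, 3 of 6 were higher at d12 than at d16, and the summed level was 2.81 and 3.73 FPKM. Most of both sums was Spaca1, with 2.03 FPKM at d12 and 3.53 at d16. Tex36 was also higher at d16, and Spaca7 was at 0 in both libraries. Acrv1, Catsper3 and Izumo1 were higher at d12, Izumo1 with 0.642 against 0.107 FPKM. What part such late transcripts in the d12 library have in the early values of the Tssk genes was not tested. Without the d12 library, 6 of 6 members lay under 2 FPKM at d16 and at or above it at d24, as did 6.86% of all genes. Leaving out a condition can lose no member, so this count could not fall and is no check of the d12 values.

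Markers of other testis cells moved as well between the libraries. The 6 Sertoli cell markers summed to 829.9 FPKM in the d12 library, 710.4 in that of d16, 499 in that of d24 and 526 in the adult one, with Amh at 0 in adult testis. Most of this sum is Clu (707, 609, 419.6 and 457 FPKM in the same order), and 5 of 6 Sertoli cell markers were lower in adult testis than at d24, such as Sox9 with 4.75 and 2.14 FPKM. The 6 Leydig cell markers summed to 132 FPKM in the d12 library, 82.4 in that of d16, 153 in that of d24 and 581 in the adult one, and 4 of 6 were at least 2-fold higher in adult testis than at d24, against 11.4% of all genes. All 6 markers of pachytene spermatocytes were higher at d16 than at d12, from Ccna1 with 2.09 FPKM at d16 to Ldhc with 389, and their median was 9.09% of the adult level at d16 and 88.9% at d24. Of these markers, 4 of 6 were still at least 4-fold higher at d24 than at d16, against 15.7% of all genes. The median of the Tssk genes was 0.121% of the adult level at d16 and 26.7% at d24. The markers of spermatogonia were higher at d12 than at d16 in 6 of 6 genes, and those of early meiotic spermatocytes in 2 of 6. On the log2(FPKM + 0.1) scale, spermatogonia markers had a median change of -0.73 at this step. It was 0.92 for early meiotic markers, 4.10 for pachytene markers and 0.00 for all genes. Macrophage markers summed to 43.5 to 50.3 FPKM and endothelial markers to 7.93 to 22.1 FPKM. The part of this cell mix in the values of the Tssk genes was not tested.

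A list of 10 genes was read as partners of the Tssk kinases, though not each has a link to them given here. Of these 10, 4 were at least 4-fold higher at d24 than at d16, against 15.7% of all genes. Of the same 10, 1 met the rule for d24 genes, against 6.30% of all genes. That gene was Tsks, the shared substrate of TSSK1 and TSSK2, with 0.131 FPKM in the d12 library, 0.131 in that of d16, 31.1 in that of d24 and 146 in the adult one. Its adult level was 4.70 times its d24 level, against 5.09 times for Tssk2 and 2.97 times for Tssk1. Tsacc, the co-chaperone that activates TSSK6, had 2.49, 4.49, 45.4 and 85.1 FPKM in the same order of stages, and was thus present before its kinase reached 2 FPKM. Odf2, which encodes a substrate of TSSK4, had 43.0 FPKM in the d12 library, 179 in that of d16, 1346.5 in that of d24 and 3168.5 in the adult one. Crem, which encodes a transcription factor of spermatids and for which no link to a Tssk kinase is given here, was the remaining gene past 4-fold. It had 5.61, 20.5, 84.0 and 130.4 FPKM. Tsacc, Odf2 and Crem were above 2 FPKM at d12, when no Tssk gene was.

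The other genes of this list differed less between d16 and d24. Spag16, whose long form is a substrate of TSSK2, went from 24.1 FPKM at d16 to 84.4 at d24, and Pdpk1, which encodes the activating kinase of TSSK3, from 16.4 to 31.0 and then to 77.4 in adult testis. The chaperone gene Hsp90aa1 had 1813.3 FPKM at d16 and 2704.8 at d24, while its relative Hsp90ab1 had 866 and 559. H2afx, whose phosphorylated product marks condensing spermatid chromatin, had 41.7 FPKM at d16, 37.4 at d24 and 23.5 in the adult. Ppp1cc, a phosphatase gene with a sperm-specific product, had 72.1, 139 and 169.8 FPKM at d16, d24 and adult. Over the 10 listed genes the median change on the log2(FPKM + 0.1) scale was 1.37 from d16 to d24 and 0.59 from d24 to adult testis.

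Related kinases were read in the same libraries. The 17 AMPK-related kinases, which act in energy sensing and cell polarity in many tissues, had a median change of -0.15 from d16 to d24 and 0.21 from d24 to adult testis. Of these, 1 of 17 was past 4-fold at d24 on this scale (Hunk), against 15.7% of all genes, and 2 of 17 met the rule for d24 genes, against 6.30%. The latter were Hunk, with 1.85 FPKM at d16 and 9.60 at d24, and Nim1k, with 0.838 at d16, 3.49 at d24 and 13.4 in the adult. The Smok genes encode sperm motility kinases, and 5 of 7 were found in the table. Their median change from d16 to d24 was 3.61. Of the 5, 4 were past 4-fold at d24 on this scale, against 15.7% of all genes, and 1 met the rule for d24 genes, against 6.30%. The Smok genes stayed far lower than most Tssk genes, at a median of 1.68 FPKM at d24 and 7.55 in adult testis. They were 2.32-fold to 5.77-fold higher in adult testis than at d24. Smok4a, at 2.32-fold, lay just under the lowest Tssk gene (Tssk5, 2.40-fold), and the other 4 lay within the range of the Tssk genes. In adult testis the lowest Tssk gene, Tssk5 with 9.04 FPKM, lay below the highest Smok gene, Smok3a with 9.97.

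The genes around the members were read in the same libraries. Fam229a starts 419 bp from the curated 5′ end of Tssk3, on the opposite strand, and no exon of either is shared among curated transcripts. It had 0.286 FPKM in the d12 library, 0.573 in that of d16, 29.5 in that of d24 and 103 in the adult one, a rise of 51.5-fold from d16 to d24 against 161-fold for Tssk3, and of 3.49-fold from d24 to adult testis against 7.76-fold. The neighbours of the Tssk1 and Tssk2 pair did not share its course. Dgcr2 went from 13.2 FPKM at d16 to 18.9 at d24, and Ess2, listed under its older symbol Dgcr14, from 7.91 to 10.8. Ndufa13, a subunit gene of the respiratory chain, overlaps 375 of the 1335 bases of Tssk6 on the opposite strand, and had 66.3 FPKM at d16, 75.4 at d24 and 132 in the adult. The libraries and the mapping were strand-specific, and the part of Ndufa13 fragments in the values of Tssk6 was not tested. Hgh1, 103 bp from Tssk5 on the opposite strand, had 1.38 FPKM at d16 and 3.56 at d24.

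Promoters of 5 of the 6 members were found in the RefSeq table of GRCm38.p6. Those of Tssk1 and Tssk2 are printed for their last 120 bases before the start, 5′ to 3′, because the genes lie in tandem and both belong to the d24 genes. Capitals mark runs of at least 8 bases that both promoters hold on the same strand, searched over 250 bases before each start, so that CTTCTAGG of Tssk2, which begins 135 bases before the start, lies outside the stretch shown.
Tssk1 (chr16:17894083-17894202, plus strand): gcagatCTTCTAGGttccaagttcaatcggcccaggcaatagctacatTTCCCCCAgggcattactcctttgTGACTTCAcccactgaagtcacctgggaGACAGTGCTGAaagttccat
Tssk2 (chr16:17898517-17898636, plus strand): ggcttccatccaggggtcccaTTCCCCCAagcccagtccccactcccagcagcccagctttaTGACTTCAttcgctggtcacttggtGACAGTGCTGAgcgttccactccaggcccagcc

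The longest shared run, GACAGTGCTGA, begins 20 bases before the start of Tssk1 and 33 bases before that of Tssk2, and 6 of 32851 promoters hold it on either strand (0.0183%). TGACTTCA begins 48 bases before the start of Tssk1 and 58 bases before that of Tssk2, and 1.31% of all promoters hold it. TTCCCCCA is held by 1.85% and CTTCTAGG by 0.950% of all promoters. These runs were found by comparing both promoters. Of motifs searched on both strands, the full cAMP response element TGACGTCA is in 0 of 5 Tssk promoters and 1.55% of all, and its core TGACG, which the full element contains, is in 1 of 5, that of Tssk6, and 17.8% of all. TATAAA is in 0 of 5 and 12.4% of all, the RFX core GTTGCC in 0 of 5 and 10.4%, and CCAAT in 2 of 5, Tssk3 and Tssk4, and 33.8%. A match or its absence describes the letters in this window only.

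Profiles were compared by the root mean square difference of log2(FPKM + 0.1) over the 4 libraries, each gene centred on its own mean. The 5 genes most like the median Tssk profile were Aqp7, Ankrd53, Mroh7, Apoh and 4931429L15Rik, with differences from 0.08 to 0.11. Aqp7, a glycerol channel of sperm, had 0.190 FPKM in the d12 library, 0.127 in that of d16, 17.3 in that of d24 and 58.5 in the adult one. Of the members themselves, Tssk4 lay closest to the median profile (0.28) and Tssk2 farthest (1.20). Tssk3 and Tssk4 were most like each other (0.60), as were Tssk5 and Tssk6 (0.73), while Tssk2 and Tssk6 were least alike (2.15). Tssk1 was most like Tssk4 (0.91), and Tssk2 was most like Tssk1 (0.94). The pseudocount and the few fragments at d12 and d16 weigh on these differences. The ratio of adult to d24 groups the members otherwise. By it Tssk3 (7.76-fold) lay apart from Tssk4 (2.77-fold), Tssk6 (6.98-fold) from Tssk5 (2.40-fold), and Tssk2 (5.09-fold) from Tssk1 (2.97-fold). Tssk1 and Tssk4 lay close by the ratio, while by profile Tssk4 was nearer to Tssk3 (0.60) than to Tssk1 (0.91). With 4 libraries, this measure ranks profiles and does not test them.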

How the data were processed

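The authors aligned strand-specific read pairs from total testis RNA with TopHat2 2.1.0, on bowtie 1.1.2 and the mouse build GRCm38/mm10, keeping 1 alignment per pair, and deposited FPKM values of RefSeq genes from Cuffdiff (Cufflinks 2.2.1, multi-read and bias correction, no effective length correction). How libraries were scaled to each other is not given in the sources used here. The deposited FPKM values sum to 283579.7 at d12 and 659202 in adult testis.

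For genes with 1 curated RefSeq transcript, FPKM times length is a whole multiple of the value of 1 fragment, namely 0.0799 FPKM for 1 kb in the d12 library, 0.0801 in that of d16, 0.0456 in that of d24 and 0.112 in the adult one. Of values up to 20 fragments, 91.8% to 92.4% lay within 0.05 of a whole number. Poisson and Clopper-Pearson 95% intervals and limits of 3 fragments rest on these fragments. Computations used python 3.11.15, numpy 2.4.6, pandas 2.3.3, scipy 1.17.1 and biopython 1.88. The recovery of the value of 1 fragment was tested on simulated data. The members and gene lists were chosen with earlier results of these data known. Named are the members, their listed partners, related kinases, neighbours, cell type markers and the 5 genes of most similar profile. Alternatives were 3 scalings (same FPKM sum, upper quartile, Gapdh), a pseudocount of 1 FPKM, no filter, thresholds of 1 and 5 FPKM, other Tssk4 lengths and, added after seeing the data, leaving out d12 and the scalings of single ratios.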

Additional observations from a re-analysis of the deposited data

How the results depend on the processing

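No paired analysis was possible because each stage has 1 library. With a pseudocount of 1 FPKM, the median Tssk change from d16 to d24 was 4.99 in place of 6.53, since a larger pseudocount lowers the change of genes near 0, and 5 of 6 members were past 4-fold, without Tssk6. With a threshold of 1 FPKM, 1 member (Tssk1) first reached it at d16 and 4 of 6 at d24, and with 5 FPKM 4 of 6 did so at d24. Rescaling to the same FPKM sum shifted the median of all genes by -0.61 from d16 to d24 and by -0.48 from d24 to adult testis, where the Tssk medians were 6.45 and 1.48. Upper quartile scaling left 5 of 6 members past 2-fold in adult testis. Division by Gapdh shifted the median of all genes by 1.14 from d16 to d24, where the Tssk median was 7.66. Of 66 alternative values over 19 results, 53 differed from the reported value by no more than its counting interval or, for counts, 1.5 times, while 13 moved and 0 changed direction. Of those that moved, the ones not given here are ratios of single members from d24 to adult testis under another scaling. Depth limits the d12 and d16 values, which rest on 0 to 22 fragments per member.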
